A study of Mus musculus with 7 samples.

Results

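Calcineurin, the RCAN proteins and the NFAT transcription factors were examined as 10 genes in mouse T-cell leukemias, namely the catalytic subunit genes Ppp3ca, Ppp3cb and Ppp3cc, the regulatory subunit gene Ppp3r1, the inhibitor genes Rcan1, Rcan2 and Rcan3, and the transcription factor genes Nfatc1, Nfatc2 and Nfatc3. All 31 probe sets whose annotation carried exactly 1 of these symbols were taken, out of 45037 probe sets in the table, or 10 genes out of 18193 with a probe set of 1 symbol. Terminally ill C57Bl/6 mice gave leukemic cells in suspension, measured on 4 Affymetrix arrays of TEL-JAK2 leukemia, taken from the thymus, and 3 arrays of ICN1 leukemia, taken from the bone marrow. TEL-JAK2 fuses the kinase JAK2 to a transcription factor and keeps it switched on, and ICN1 is a form of the receptor NOTCH1 that signals without its ligand. Treatment, age, any cell sorting, the promoter that drives either oncogene and the way it was introduced: none is stated in the labels used here. Each leukemia was sampled from 1 tissue, so leukemia and tissue cannot be told apart in any difference below. Whether the arrays of a group came from separate animals is not stated in the labels, so the p-values cover the spread among these arrays and nothing wider. The question is how the transcripts of this pathway differ between the 2 leukemias.

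Calcineurin is a phosphatase made of a catalytic and a regulatory subunit, and calcium-loaded calmodulin switches it on when calcium enters the cell after antigen receptor signalling. It removes phosphates from NFAT proteins, which then move into the nucleus and switch on genes of T-cell activation, while kinases return NFAT to the cytoplasm and RCAN proteins bind and inhibit the phosphatase. The pathway acts in thymocyte selection, is the target of ciclosporin and tacrolimus, and has been described as active in T-cell leukemias of mice. Transcript levels, which are what the arrays measure, do not report the phosphatase activity or the location of NFAT.

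Values are log2 expression values that the authors deposited, 1 per probe set and array, so a difference of 1 is a doubling. Each difference is the TEL-JAK2 mean minus the ICN1 mean, with the standard error (SE) of a limma fit over all 45037 probe sets. A probe set counts as called where its p, adjusted over all of them by Benjamini-Hochberg, is below 0.05. Levels of different probe sets are not set against each other, since each has its own affinity. In bulk samples, fewer cells of a type and less RNA per cell cannot be told apart.

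Array medians lay between 5.44 and 5.5, and Pearson's r across probe sets was 0.975 to 0.989 between TEL-JAK2 arrays, 0.973 to 0.982 between ICN1 arrays and 0.921 to 0.944 between the groups. The mean level of 9 T-lineage genes was high in both groups, at 11.41 to 11.61 in TEL-JAK2 arrays and 11.37 to 11.59 in ICN1 arrays, with 5 of them called higher and 2 lower. Markers of some other cell types differed, those of red cells most. The mean level of 9 erythroid genes, 7 of them called lower, was 5.52 to 6.00 in TEL-JAK2 arrays and 11.03 to 11.29 in ICN1 arrays. Monocyte and macrophage genes, 5 of 11 called lower, had a mean of 6.39 to 8.66 in TEL-JAK2 arrays and 8.89 to 10.25 in ICN1 arrays. Granulocyte genes, 5 of 13 called lower, had a mean of 5.14 to 5.5 in TEL-JAK2 arrays and 5.94 to 7.45 in ICN1 arrays, and 4 of 5 megakaryocyte genes were lower as well. Of the B-lineage genes 1 of 11 was called higher, and of the stromal and endothelial genes 1 of 12 lower. Thymic epithelial genes had a mean of 5.08 to 5.73 in TEL-JAK2 arrays and 4.95 to 5.40 in ICN1 arrays, and dendritic genes one of 7.49 to 8.90 in TEL-JAK2 arrays and 6.30 to 7.93 in ICN1 arrays. By limma 0 of 10 genes were called in either of these lists, where 4 thymic epithelial and 1 dendritic genes had an unadjusted p under 0.05. The part of these cells in the differences below was not tested. ICN1 replicates 1 and 2 held both Xist (11.51 and 11.79) and the Y-linked Eif2s3y (8.93 and 9.41), so results are also given without these arrays. In TEL-JAK2 replicate 4 Xist read 5.19 and Eif2s3y 10.23, while the other TEL-JAK2 arrays had Xist at 13.12 to 13.36.

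Transcripts of 1 catalytic subunit, 1 inhibitor and 2 NFAT factors were higher in TEL-JAK2 leukemia and those of another inhibitor were lower. By the brightest probe set of each gene, Nfatc2 was 5.5-fold, Ppp3ca 4.66-fold, Nfatc1 2.76-fold and Rcan3 2.72-fold higher, and Rcan1 was 2.29-fold lower. By the mean of all probe sets of a gene the log2 differences were smaller, at 0.65, 1.94, 0.76, 1.0 and -1.15 in the same order. Ppp3cb, Ppp3cc, Ppp3r1, Rcan2 and Nfatc3 were not called by their brightest probe sets, although the other probe set of Ppp3cc was. Counting all probe sets, 11 of 31 were called higher, against 9.26% of all probe sets, and 2 were called lower, against 10.3%. Brighter probe sets are called more often. In a fit of only the 22518 probe sets above the median mean, 3835 were higher and 4135 lower. That fit held 22 probe sets of these genes, 11 higher and 1 lower. Counting each gene once by its brightest probe set, 4 of 10 were higher, against 11.3% of all genes, and 1 was lower, against 11.7%. TEL-JAK2 arrays lay wholly above ICN1 arrays in 13 of 31 probe sets, against 16.2% of all, and wholly below in 4, against 14.4%. The median difference was 0.25 over the 31 probe sets and 0.035 over all.

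**Figure D1:**
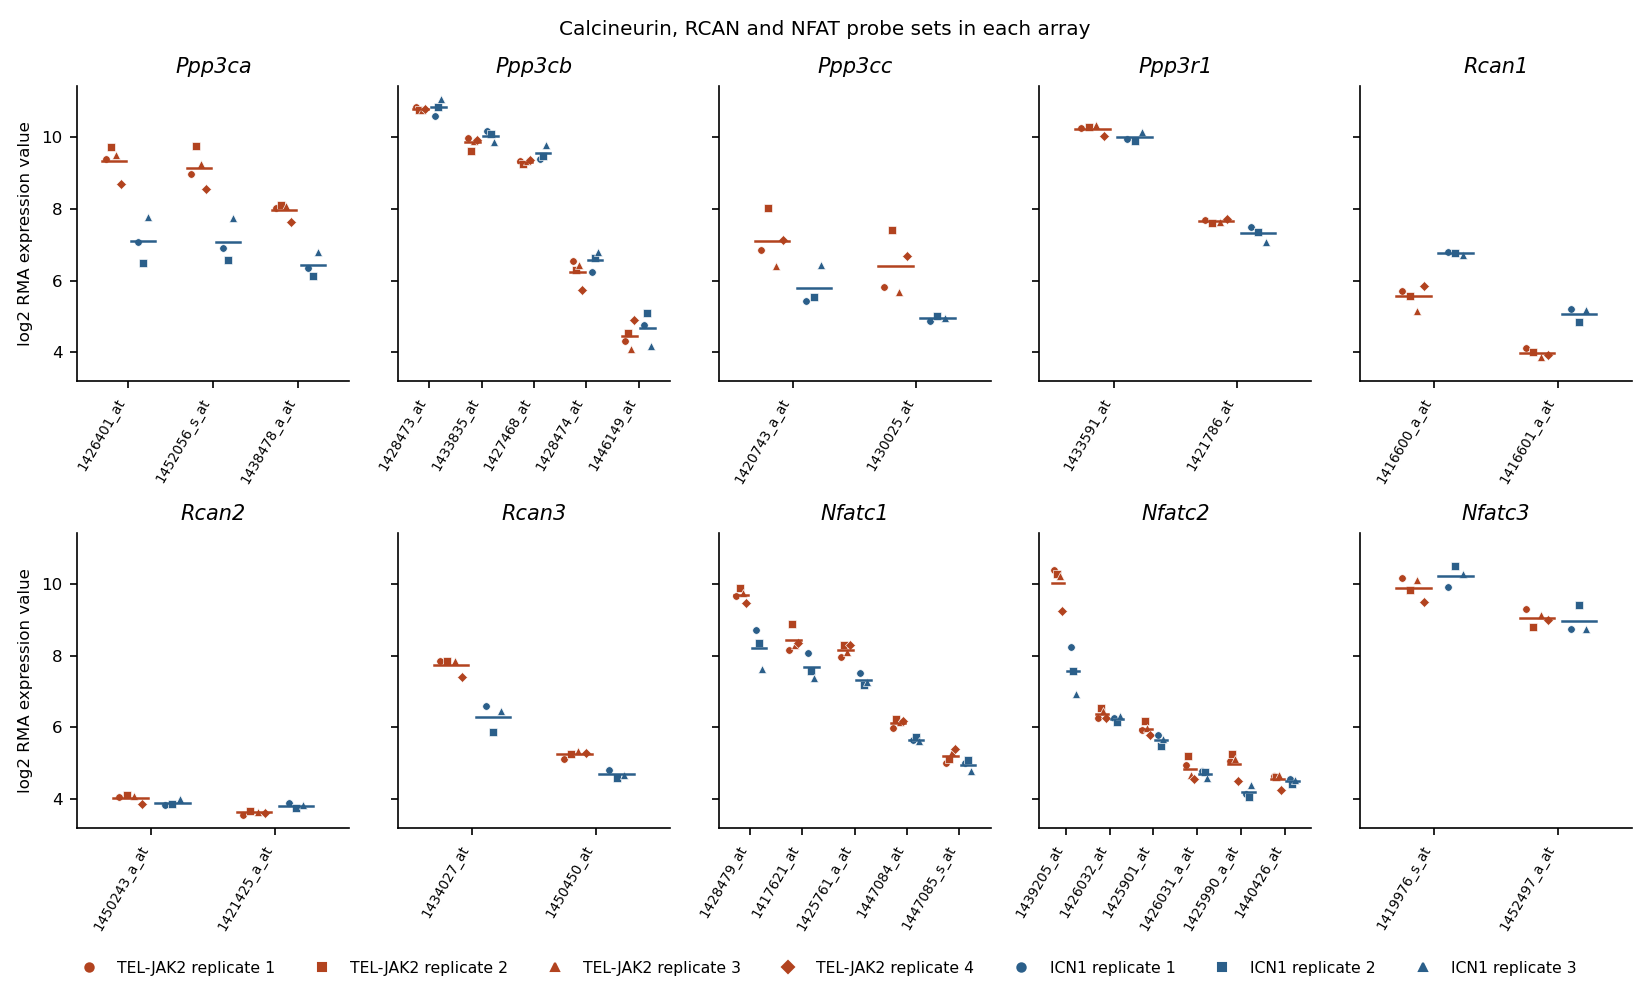
Log2 expression value (vertical axis) of each of the 31 probe sets, 1 panel per gene, in 4 TEL-JAK2 arrays (left of each pair) and 3 ICN1 arrays (right). Points are arrays and horizontal lines are group means; all 3 probe sets of Ppp3ca separate the groups, while Nfatc2 separates widely in its brightest probe set, with TEL-JAK2 values of 9.24 to 10.39 and ICN1 values of 6.94 to 8.23.

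The split between directions changed when arrays were centred on CD3 genes, but little with rescalings closer to the deposited values. Quantile normalization again gave 13 of 31 probe sets higher and 2 lower, where 4410 and 4535 of all 45037 were called. Centring on array medians gave 12 and 2, where 4101 and 4521 of all were called. CD3 genes, which encode the signalling chains of the T-cell receptor, averaged 12.36 in TEL-JAK2 and 11.74 in ICN1. The difference was 0.62 over the mean of 4 genes. Of these, Cd3d, Cd3g and Cd247 were themselves called higher, and Cd3e was not called. The 9 T-lineage genes, which include them, had nearly equal means (11.41 to 11.61 in TEL-JAK2 arrays, 11.37 to 11.59 in ICN1 arrays). On that list 5 genes were called higher and 2 lower, the latter being Ptcra (-2.52) and Cd5 (-1.76). The size of the shift thus depends on the genes chosen. Centring each array on the CD3 mean moves every difference down by 0.62 and the median of all probe sets to -0.59. It left 6 of 31 probe sets higher and 13 lower, where 3.46% and 66.6% of all probe sets were called. The 6 that stayed higher were the 3 of Ppp3ca and the brightest ones of Rcan3, Nfatc1 and Nfatc2. Both probe sets of Rcan1 stayed lower. A test against a 1.5-fold difference, which calls 4.88% of all probe sets, kept 5 of the higher calls, the 3 of Ppp3ca and the brightest of Rcan3 and Nfatc2, and 1 of Rcan1. Without ICN1 replicates 1 and 2, which leaves 1 ICN1 array that is assumed to vary like the TEL-JAK2 arrays, 6 probe sets were higher and 1 lower, where 12.9% of all were called.

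**Figure D2:**
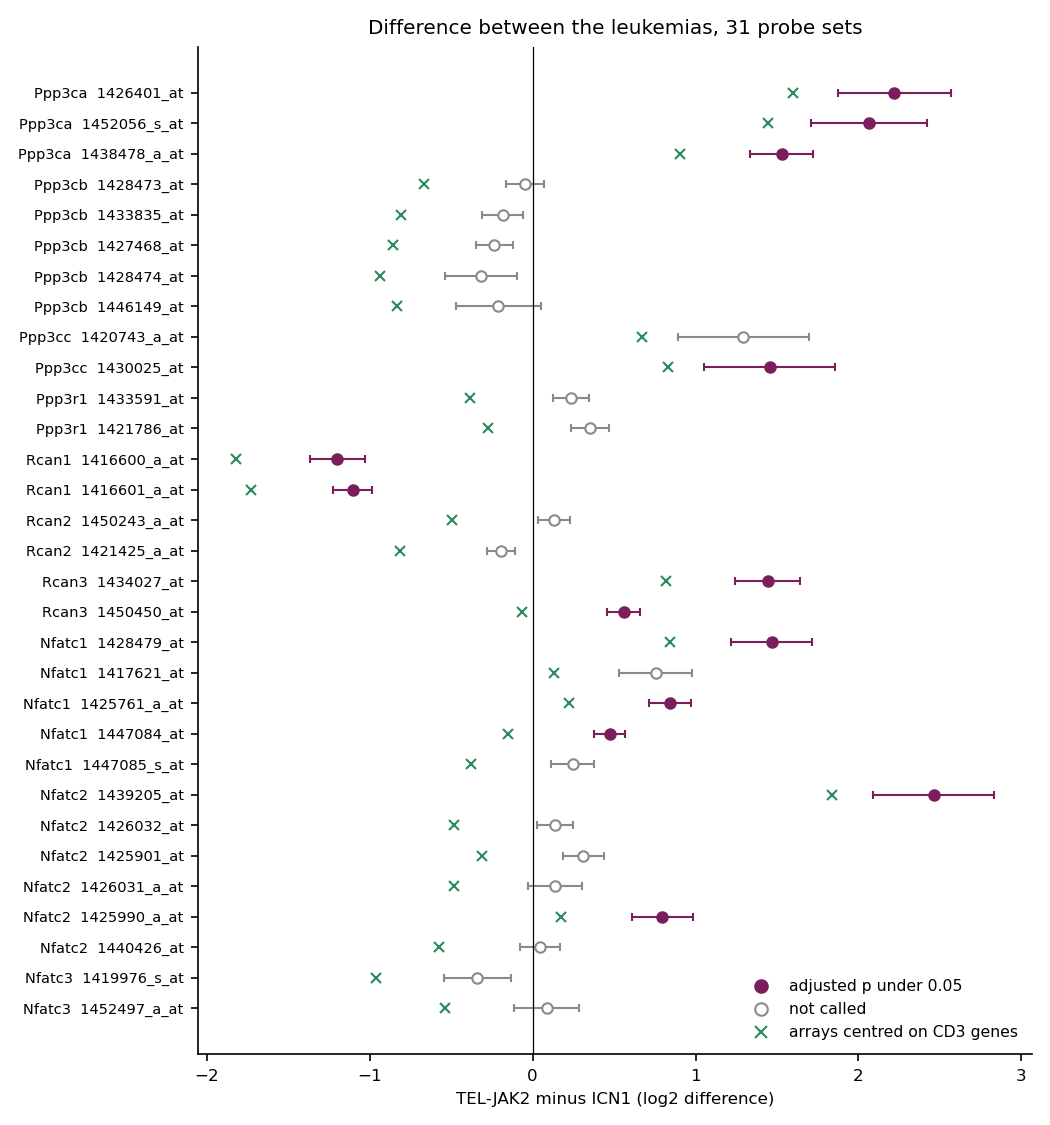
Difference TEL-JAK2 minus ICN1 in log2 units (horizontal axis) for the 31 probe sets, with the SE of the limma fit as bars, n = 4 and n = 3 arrays. Filled circles had an adjusted p under 0.05, open circles did not, and crosses give the difference after centring the arrays on CD3 genes, which turns 11 probe sets from above to below 0.

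Among the catalytic subunits, Ppp3ca, which encodes the alpha isoform and is widely expressed, was higher in TEL-JAK2 by every probe set. Its brightest probe set, 1426401_at, read 9.39, 9.72, 9.51 and 8.69 in TEL-JAK2 replicates 1 to 4, against 7.07, 6.48 and 7.79 in ICN1 replicates 1 to 3. The groups did not overlap, TEL-JAK2 replicate 4 being the lowest of its group and ICN1 replicate 3 the highest of its own. The difference was 2.22 ± 0.35 (limma adjusted p = 0.00456), and it was called in all 7 fits that left out 1 array (1.90 to 2.56). The probe set 1452056_s_at differed by 2.07 ± 0.35 (limma adjusted p = 0.00675) and 1438478_a_at by 1.53 ± 0.19 (limma adjusted p = 0.00182). All 3 probe sets placed the arrays alike, with TEL-JAK2 replicate 2 highest and replicate 4 lowest among TEL-JAK2 arrays, and ICN1 replicate 3 highest and replicate 2 lowest among ICN1 arrays. Without ICN1 replicates 1 and 2 the differences of 1426401_at and 1452056_s_at shrank to 1.54 and 1.39 and were no longer called (limma adjusted p = 0.0579 and 0.106), while 1438478_a_at was still called at 1.15 (0.0294).

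Ppp3cb encodes the beta isoform, whose loss in mice impairs T-cell development and function. Its brightest probe set, 1428473_at, read 10.83, 10.75, 10.77 and 10.80 in TEL-JAK2 replicates 1 to 4, against 10.61, 10.84 and 11.06 in ICN1 replicates 1 to 3. The TEL-JAK2 values lay within the ICN1 range, and the difference of -0.05 ± 0.12 was not called (limma adjusted p = 0.833). The other 4 probe sets were 1428474_at (-0.31 ± 0.22), 1427468_at (-0.23 ± 0.11), 1446149_at (-0.21 ± 0.26) and 1433835_at (-0.18 ± 0.13), and none was called (limma adjusted p = 0.384, 0.198, 0.643 and 0.368). One of them, 1427468_at, did not overlap between the groups, with 9.26 to 9.36 in TEL-JAK2 and 9.40 to 9.78 in ICN1. With the arrays centred on CD3 genes all 5 were called lower, at -0.94 to -0.67. That centring lowers every difference by 0.62, and 66.6% of all probe sets were then called lower.

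Ppp3cc, the gamma isoform best known from testis, gave 2 probe sets that fell on either side of the threshold. For 1430025_at the TEL-JAK2 replicates 1 to 4 read 5.81, 7.41, 5.67 and 6.70, against 4.87, 5.0 and 4.95 in ICN1 replicates 1 to 3. All TEL-JAK2 arrays lay above all ICN1 arrays, and TEL-JAK2 replicates 2 and 4 stood above replicates 1 and 3. The difference was 1.46 ± 0.40 (2.74-fold, limma adjusted p = 0.0420). Leaving out ICN1 replicate 1, 2 or 3 ended the call each time (limma adjusted p = 0.108, 0.0955 and 0.0926), as did leaving out TEL-JAK2 replicate 4 (0.0869) or both ICN1 replicates 1 and 2 (0.249). CD3 centring ended it too (0.83, limma adjusted p = 0.101). The brighter 1420743_a_at read 6.84, 8.01, 6.40 and 7.13 in TEL-JAK2 replicates 1 to 4, against 5.43, 5.55 and 6.43 in ICN1 replicates 1 to 3. Its groups overlapped, since TEL-JAK2 replicate 3 lay just below ICN1 replicate 3. Its difference of 1.29 ± 0.40 was not called (limma adjusted p = 0.0630), and was called without ICN1 replicate 3 (0.0420) or TEL-JAK2 replicate 3 (0.0454).

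Ppp3r1 encodes calcineurin B, the calcium-binding regulatory subunit. The probe set 1433591_at read 10.27, 10.29, 10.34 and 10.04 in TEL-JAK2 replicates 1 to 4, against 9.96, 9.90 and 10.14 in ICN1 replicates 1 to 3, and the ranges overlapped. The difference was 0.24 ± 0.11 (limma adjusted p = 0.190). The dimmer 1421786_at had TEL-JAK2 values of 7.62 to 7.72 and ICN1 values of 7.09 to 7.5, without overlap, and a difference of 0.35 ± 0.11 (limma adjusted p = 0.0733). It was called without ICN1 replicates 1 and 2 (0.58, limma adjusted p = 0.0416). Both differences were negative with CD3 centring, at -0.39 and -0.27, and neither was then called.

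The RCAN genes went in opposite directions. Rcan1, which encodes a calcineurin inhibitor and is itself known as a target of NFAT, was lower in TEL-JAK2. The probe set 1416600_a_at read 5.71, 5.56, 5.15 and 5.86 in TEL-JAK2 replicates 1 to 4, against 6.81, 6.77 and 6.72 in ICN1 replicates 1 to 3. Every TEL-JAK2 array lay below every ICN1 array, and the ICN1 arrays were close together. The difference was -1.20 ± 0.17 (limma adjusted p = 0.00290). The second probe set, 1416601_a_at, read 4.11, 3.99, 3.86 and 3.92 in TEL-JAK2 replicates 1 to 4, against 5.21, 4.85 and 5.17 in ICN1 replicates 1 to 3. It too separated the groups, with a difference of -1.10 ± 0.12 (limma adjusted p = 0.00107). Its TEL-JAK2 mean of 3.97 lay near the lower end of the table, where RMA compresses folds. Both probe sets were called in all 7 fits that left out 1 array, at -1.29 to -1.04. Without ICN1 replicates 1 and 2 the first was no longer called (-1.15, limma adjusted p = 0.0538) and the second was (-1.20, 0.00932).

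Rcan1 is transcribed from 2 start sites, and the internal one is known for its NFAT sites, so the 250 bases before each start are shown, from RefSeq on build GRCm38.p6. Both probe sets carry the suffix _a_at, which Affymetrix uses for transcripts of 1 gene that share sequence, and which start site they report was not analysed here. The sequence before the single Rcan3 start in the table follows for comparison. Capitals mark GGAAA, the core of NFAT sites, on either strand (TTTCC on the strand shown).
Rcan1, start nearer the 3′ end of the gene, chr16:92400079-92400328, minus strand: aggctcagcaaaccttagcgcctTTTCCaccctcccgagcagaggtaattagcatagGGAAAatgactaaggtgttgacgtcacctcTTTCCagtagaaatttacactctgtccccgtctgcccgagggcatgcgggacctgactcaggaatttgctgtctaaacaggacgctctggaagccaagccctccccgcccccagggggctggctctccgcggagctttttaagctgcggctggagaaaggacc
Rcan1, start nearer the 5′ end, chr16:92466170-92466419, minus strand: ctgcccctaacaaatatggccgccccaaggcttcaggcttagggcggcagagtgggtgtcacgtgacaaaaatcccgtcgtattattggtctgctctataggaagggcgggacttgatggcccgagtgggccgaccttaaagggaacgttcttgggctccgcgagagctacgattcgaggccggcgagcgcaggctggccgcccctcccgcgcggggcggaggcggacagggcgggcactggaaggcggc
Rcan3, chr4:135433806-135434055, minus strand: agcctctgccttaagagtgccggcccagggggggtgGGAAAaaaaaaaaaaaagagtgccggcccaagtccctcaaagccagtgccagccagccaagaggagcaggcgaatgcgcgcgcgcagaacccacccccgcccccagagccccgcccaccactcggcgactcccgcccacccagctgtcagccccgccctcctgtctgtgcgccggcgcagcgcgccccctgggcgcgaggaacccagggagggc
The window before the internal Rcan1 start held 3 matches, the outer one 0 and the Rcan3 one 1, and 55.6% of 32851 promoter windows of the same length held at least 1, with a median of 1 match. TGGGAA, the core bound by the NOTCH partner RBPJ, was found once in the Rcan3 window, where it overlaps the GGAAA match, and in 0 of the 2 Rcan1 windows, and 21.6% of all windows held it. TTCNNNGAA, the site of STAT5, was found in 0 of the 3 windows and in 7.02% of all. A match is a run of letters and not a measured site.

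Rcan3 was higher in TEL-JAK2 by both probe sets. For 1434027_at the TEL-JAK2 replicates 1 to 4 read 7.86, 7.84, 7.85 and 7.41, against 6.59, 5.86 and 6.44 in ICN1 replicates 1 to 3. The groups did not overlap, and TEL-JAK2 replicate 4 lay below the other TEL-JAK2 arrays, which lay close together. The difference was 1.44 ± 0.20 (limma adjusted p = 0.00286), or 0.82 with CD3 centring, where it was still called (0.0124). The dimmer 1450450_at read 5.11, 5.26, 5.33 and 5.29 in TEL-JAK2 replicates 1 to 4, against 4.81, 4.58 and 4.66 in ICN1 replicates 1 to 3. It also separated the groups, with a smaller difference of 0.56 ± 0.10 (1.47-fold, limma adjusted p = 0.00833). That difference was -0.064 with CD3 centring (limma adjusted p = 0.739) and missed the threshold without ICN1 replicates 1 and 2 (0.58, 0.0594). Rcan2, the third inhibitor gene and known mainly from brain and muscle, lay near the lower end of the table in both groups. The probe set 1450243_a_at read 3.86 to 4.10 in TEL-JAK2 and 3.83 to 3.99 in ICN1, and was not called (0.13 ± 0.10, limma adjusted p = 0.425). The probe set 1421425_a_at read 3.56 to 3.67 in TEL-JAK2 and 3.73 to 3.88 in ICN1, without overlap, and was not called either (-0.19 ± 0.09, limma adjusted p = 0.165).

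Among the NFAT factors, Nfatc2, which encodes the NFAT protein prominent in mature T cells, had the largest difference of the 31 probe sets. The probe set 1439205_at read 10.39, 10.27, 10.23 and 9.24 in TEL-JAK2 replicates 1 to 4, against 8.23, 7.56 and 6.94 in ICN1 replicates 1 to 3. The lowest TEL-JAK2 array, replicate 4, stood above the highest ICN1 array, replicate 1. The difference was 2.46 ± 0.37 (limma adjusted p = 0.00397). It was called in all 7 fits that left out 1 array (2.14 to 2.79), with CD3 centring (1.84, limma adjusted p = 0.00145) and without ICN1 replicates 1 and 2 (3.10, 0.0140). The other 5 probe sets of Nfatc2 did not show a difference of this size. One of them, 1425990_a_at, with a mean of 4.99 in TEL-JAK2 and 4.19 in ICN1, was called higher at 0.80 ± 0.19 (limma adjusted p = 0.0246). It did not hold when ICN1 replicate 1 or 2 was left out (limma adjusted p = 0.0735 and 0.0776), nor when TEL-JAK2 replicate 1, 2 or 3 was (0.0682, 0.0584 and 0.0649). It was also lost with CD3 centring (0.17, limma adjusted p = 0.459) and in the fit that lacked both ICN1 replicates 1 and 2 (0.61, 0.270). The remaining 4 were 1425901_at (0.31 ± 0.13), 1426031_a_at (0.14 ± 0.16), 1426032_at (0.14 ± 0.11) and 1440426_at (0.05 ± 0.12), and none was called (limma adjusted p = 0.133, 0.622, 0.448 and 0.840). Their group means lay between 4.55 and 6.38 in TEL-JAK2 and between 4.5 and 6.24 in ICN1. The disagreement in the size of the difference is thus between 1 bright probe set and 5 dimmer ones. Of the dimmer ones, 1425990_a_at was called in the same direction as the bright one.

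The RefSeq table holds 2 starts of Nfatc2, and the 250 bases before each are shown because this gene had the largest difference, again with GGAAA on either strand in capitals.
Nfatc2, start nearer the 5′ end of the gene, chr2:168601658-168601907, minus strand: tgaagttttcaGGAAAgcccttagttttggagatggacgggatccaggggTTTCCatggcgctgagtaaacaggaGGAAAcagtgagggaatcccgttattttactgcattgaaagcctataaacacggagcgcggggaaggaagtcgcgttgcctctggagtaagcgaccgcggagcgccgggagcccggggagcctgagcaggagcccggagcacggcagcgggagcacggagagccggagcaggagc
Nfatc2, start nearer the 3′ end, chr2:168590366-168590615, minus strand: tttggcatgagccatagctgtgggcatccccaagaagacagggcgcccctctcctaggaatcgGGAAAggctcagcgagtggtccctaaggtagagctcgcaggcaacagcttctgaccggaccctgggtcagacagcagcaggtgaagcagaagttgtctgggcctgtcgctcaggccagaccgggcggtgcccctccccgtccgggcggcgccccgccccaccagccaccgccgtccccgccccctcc
The first window held 3 matches and the second 1, and both had 0 matches to TGGGAA and to TTCNNNGAA.

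**Figure D3:**
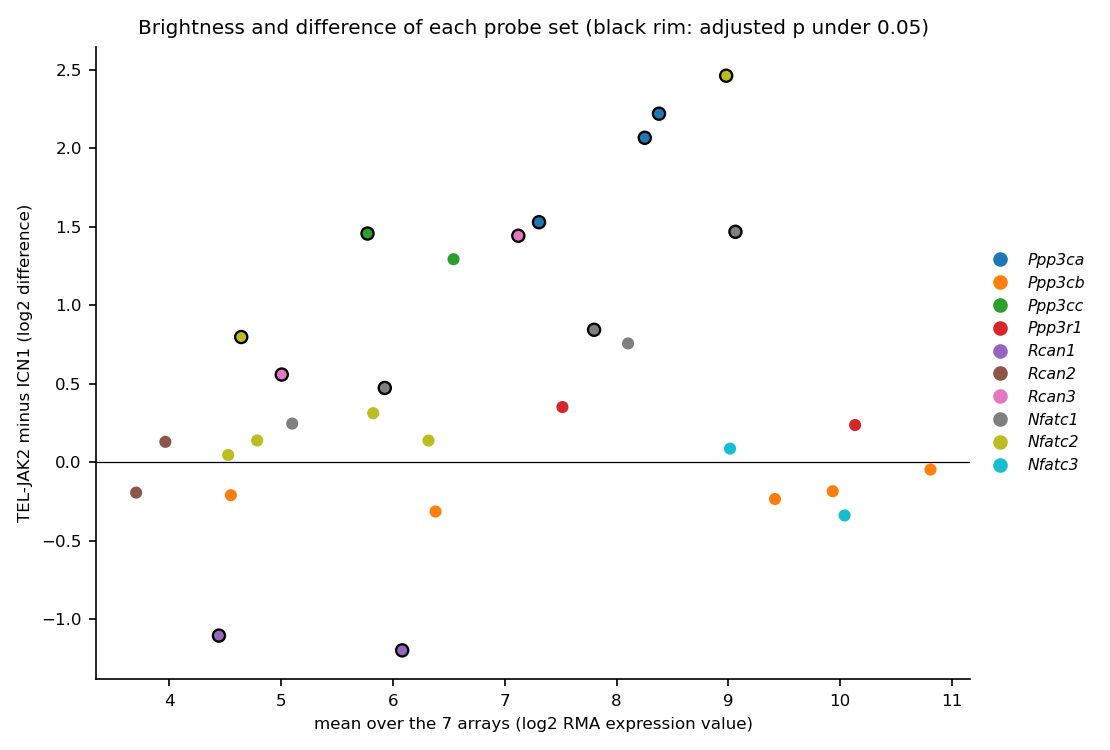
Mean over the 7 arrays (horizontal axis, log2 expression value) against the difference TEL-JAK2 minus ICN1 (vertical axis, log2) for the 31 probe sets, coloured by gene, with a black rim at an adjusted p under 0.05. The 6 probe sets of Nfatc2 run from 0.05 to 2.46 and the 5 of Nfatc1 from 0.25 to 1.47, with the widest difference of each gene at its brightest probe set.

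Nfatc1 encodes an NFAT protein whose short isoform is induced by NFAT itself in stimulated lymphocytes. Of its 5 probe sets, 3 were called higher in TEL-JAK2 and 2 were not called. The brightest, 1428479_at, read 9.68, 9.88, 9.75 and 9.46 in TEL-JAK2 replicates 1 to 4, against 8.72, 8.34 and 7.62 in ICN1 replicates 1 to 3. The groups did not overlap, and the ICN1 arrays were spread more widely (SD 0.56) than the TEL-JAK2 arrays (SD 0.18). The difference was 1.47 ± 0.25 (limma adjusted p = 0.00642), called in all 7 fits that left out 1 array and with CD3 centring (0.85, 0.00924). The test against a 1.5-fold difference did not call it (limma adjusted p = 0.0760). The probe set 1425761_a_at differed by 0.84 ± 0.13 (limma adjusted p = 0.00458) and 1447084_at by 0.47 ± 0.09 (0.0121), both without overlap. With CD3 centring these differences were 0.22 and -0.15, and neither was called. Without ICN1 replicates 1 and 2 the first was still called (0.90, limma adjusted p = 0.0339) and the second was not (0.51, 0.0900). The probe set 1417621_at read 8.16, 8.89, 8.30 and 8.36 in TEL-JAK2 replicates 1 to 4, against 8.07, 7.57 and 7.37 in ICN1 replicates 1 to 3. It separated the groups narrowly and missed the threshold (0.76 ± 0.22, limma adjusted p = 0.0533), passing it without ICN1 replicate 1 (0.0306). The dimmest, 1447085_s_at, was not called (0.25 ± 0.13, limma adjusted p = 0.247).

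Nfatc3 encodes the NFAT protein abundant in immature double-positive thymocytes. The probe set 1419976_s_at read 10.16, 9.82, 10.11 and 9.49 in TEL-JAK2 replicates 1 to 4, against 9.91, 10.50 and 10.29 in ICN1 replicates 1 to 3. The ranges overlapped and the difference of -0.34 ± 0.20 was not called (limma adjusted p = 0.308). The probe set 1452497_a_at had TEL-JAK2 values of 8.79 to 9.29 and ICN1 values of 8.74 to 9.41, and a difference of 0.09 ± 0.20 (limma adjusted p = 0.813). Centring on CD3 genes gave -0.96 and -0.54, both called lower, where 66.6% of all probe sets were called lower.

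Related genes were then compared within each array, which no array-wide scaling moves, by the log2 ratio of their brightest probe sets. These 4 ratios were chosen after the values had been seen. A ratio shows unequal change and its own level has no meaning, since the probe sets differ in affinity. The ratio of Ppp3ca to Ppp3cb was -1.44, -1.02, -1.26 and -2.10 in TEL-JAK2 replicates 1 to 4, against -3.53, -4.36 and -3.27 in ICN1 replicates 1 to 3. The groups did not overlap, and the ratio was 4.81-fold higher in TEL-JAK2 (difference 2.27, range 1.94 to 2.49 when 1 array was left out). For Rcan3 to Rcan1 the ratio was 2.15, 2.28, 2.70 and 1.55 in TEL-JAK2 replicates 1 to 4, against -0.22, -0.91 and -0.28 in ICN1 replicates 1 to 3. This was 6.23-fold higher in TEL-JAK2 (difference 2.64, range 2.42 to 2.85). The ratio of Nfatc2 to Nfatc3 averaged 0.14 ± 0.29 in TEL-JAK2 (SD, n = 4) and -2.66 ± 0.87 in ICN1 (SD, n = 3), a difference of 2.80. That of Nfatc1 to Nfatc3 averaged -0.20 ± 0.26 in TEL-JAK2 (SD, n = 4) and -2.01 ± 0.75 in ICN1 (SD, n = 3), a difference of 1.81. Both ratios depend on the probe sets used. The brightest of Nfatc2 differed by 2.46 and its others by 0.05 to 0.80. For Nfatc1 these were 1.47 and 0.25 to 0.84, and for Nfatc3 -0.34 and 0.09. In each of the 4 pairs all TEL-JAK2 arrays lay above all ICN1 arrays. Since the pairs were picked for genes that moved apart, this separation is a description and carries no test. Against ICN1 replicate 3 alone the differences in the same order were 1.81, 2.45, 3.5 and 2.47.

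**Figure D4:**
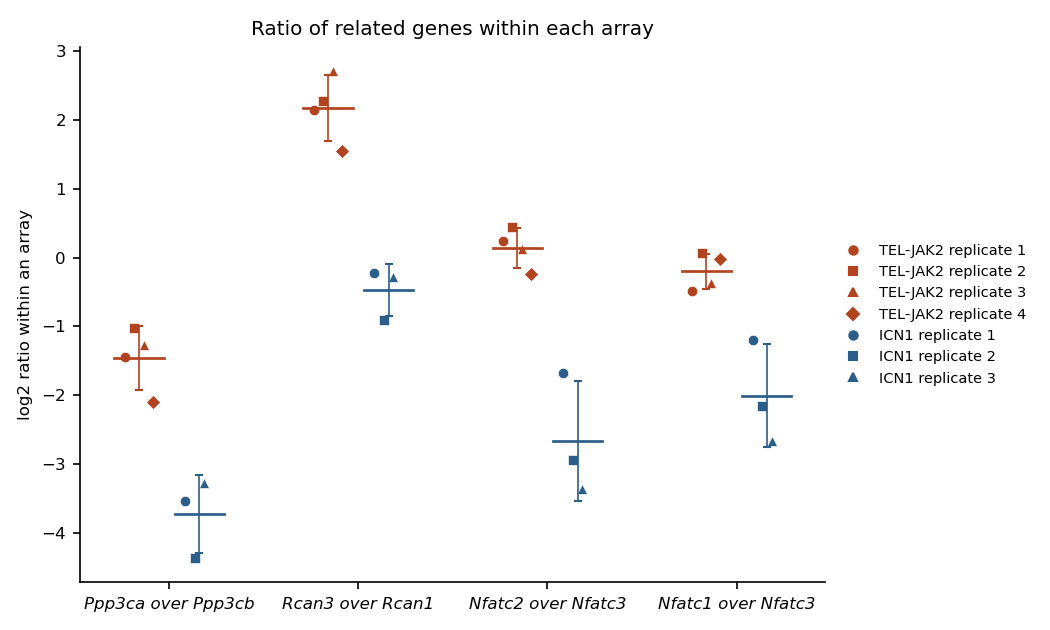
Log2 ratio of the brightest probe sets of 2 related genes within each array (vertical axis), in 4 TEL-JAK2 arrays (left of each pair) and 3 ICN1 arrays (right). Points are arrays, horizontal lines are means and bars are SD; the TEL-JAK2 arrays lie above the ICN1 arrays in all 4 ratios, by 1.81 to 2.80 between the means.

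The genes whose profiles over the 7 arrays were most like those of the called genes were found by the mean absolute difference after each probe set's own mean was removed. All 7 arrays, and so the difference between the leukemias, enter this measure. Rcan3 was most like Lasp1, which encodes an actin-binding protein (0.0357 log2 units), then Tapt1 (0.0760) and Mob3a (0.0829). Rcan1 was most like Rfwd3, which encodes a ubiquitin ligase of DNA repair (0.0503), then Gen1, a resolvase of DNA junctions (0.0701), and Ctc1, a telomere maintenance protein (0.0745). Nfatc1 was most like Lpin1 (0.0899), the integrin gene Itgb2 (0.0942) and Nek7 (0.104). For Ppp3ca the closest were Jakmip1 (0.173), Cmtm6 (0.192) and Sgk3 (0.193), and for Nfatc2 N4bp2l1 (0.173), the chemokine receptor gene Ccr4 (0.194) and Tnfsf14 (0.197). Nothing on shared control follows from these distances.

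Around the 10 genes, 53 further genes of the pathway had a probe set of 1 symbol, and by the brightest probe set of each 15 were higher in TEL-JAK2, 1 was lower and 37 were not called, where 11.3% of all genes were higher and 11.7% lower. The median difference was 0.35 against 0.044 over all genes. With CD3 centring 8 were higher and 19 lower, where 3.46% of all probe sets were higher and 66.6% lower. The 7 higher calls lost with CD3 centring were Plcg1, Csnk1d, Dyrk2, Akap5, Crtc1, Mef2d and Itpr2. Without ICN1 replicates 1 and 2, which leaves 1 ICN1 array, Stim2, Crtc3, Dyrk2, Mef2a, Nfat5, Orai2, Akap5 and Crtc1 were no longer called. Their differences in that fit ran from 0.47 (Crtc1) to 1.65 (Mef2a). Genes of calcium entry and release held 6 of the 15. Saraf, a regulator of store-operated entry, differed by 1.90 ± 0.19 (limma adjusted p = 0.000699), Orai2, a channel subunit, by 1.93 ± 0.39 (0.0131), and Stim2, a calcium sensor of the endoplasmic reticulum, by 1.27 ± 0.21 (0.00587). The difference of Orai2 was 1.09 without ICN1 replicates 1 and 2 (limma adjusted p = 0.157) and that of Stim2 was 1.06 (0.0948). Itpr3, a calcium release channel, differed by 1.26 ± 0.15 (limma adjusted p = 0.00164), and Plcg1, which generates the messenger that opens it, by 1.0 ± 0.09 (0.000528), although 1 of 3 probe sets of Plcg1 was called. Itpr2 was called at 1.02 ± 0.30 (limma adjusted p = 0.0496), but in 2 of its 6 probe sets and in 2 of the 7 fits without 1 array. The 1 lower gene was Atp2a2, the SERCA2 pump that returns calcium to the endoplasmic reticulum (-0.96 ± 0.16, limma adjusted p = 0.00599), with all 6 of its probe sets lower. Orai1 and Stim1, the principal channel and sensor of T cells, lay above ICN1 without overlap and were not called (0.80 ± 0.25 and 0.68 ± 0.21, limma adjusted p = 0.0619 and 0.0642). The other 5 of the 14 genes in this list, Atp2a3, Atp2b4, Plcg2, Atp2b1 and Orai3, were not called.

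The lists are short, and their counts stand beside the 11.3% of all genes called higher. Of 7 NFAT kinase genes 2 were higher, Dyrk2 (1.04 ± 0.19, limma adjusted p = 0.00952, all 4 probe sets called) and Csnk1d (0.79 ± 0.13, 0.00598, 2 of 5 called). Dyrk1a, Csnk1a1, Csnk1e, Gsk3a and Gsk3b were not called. Of 8 genes of other calcineurin substrates, 4 were higher, namely Mef2a (1.44 ± 0.28, limma adjusted p = 0.0106) and Mef2d (0.70 ± 0.16, 0.0198), both myocyte enhancer factors, and Crtc3 (1.39 ± 0.24, 0.00647) and Crtc1 (0.92 ± 0.20, 0.0188), coactivators of CREB. Bad, Tfeb, Crtc2 and Mef2c were not called. Crtc1, called in 1 of its 3 probe sets, lost its call in 4 of the 7 fits with an array left out (ICN1 replicates 1 and 2, TEL-JAK2 replicates 1 and 3). Mef2d, called in 2 of its 3 probe sets, lost it in 3 of these fits (ICN1 replicates 1 and 3, TEL-JAK2 replicate 3). Among further paralogs Nfat5, the NFAT factor that calcineurin does not control, was higher (1.13 ± 0.23, limma adjusted p = 0.0125, 3 of 6 probe sets called). Nfatc4, Ppp3r2 and Chp2 were not called. Of 7 genes for calcineurin-binding proteins the scaffold gene Akap5 was higher (0.89 ± 0.20, limma adjusted p = 0.0179, 1 of 3 probe sets called). This call was lost without ICN1 replicates 1 or 3.

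Of 13 genes known as NFAT targets in activated T cells 1 was called higher, a share near the 11.3% of all genes, so the count says nothing particular to them. The gene was Pdcd1, which encodes the receptor PD-1. It read 8.80, 8.81, 8.69 and 10.30 in TEL-JAK2 replicates 1 to 4, against 7.74, 6.61 and 4.94 in ICN1 replicates 1 to 3, without overlap. The difference was 2.72 ± 0.68 (limma adjusted p = 0.0286), and the call held in 1 of the 7 fits with an array left out, that lacking ICN1 replicate 1. In the other 6 the limma adjusted p was 0.0503 to 0.0677. Ifng read 3.70, 10.24, 3.71 and 7.98 in TEL-JAK2 replicates 1 to 4, against 3.98, 3.43 and 3.74 in ICN1 replicates 1 to 3. TEL-JAK2 replicates 2 and 4 thus stood far above all other arrays, and the difference of 2.69 ± 1.58 was not called (limma adjusted p = 0.295). These were also the higher TEL-JAK2 arrays for Tnfrsf9 (9.18 and 9.91 in replicates 2 and 4, 6.78 and 6.84 in replicates 1 and 3), for Fasl and for both probe sets of Ppp3cc. The mean of the 11 monocyte and macrophage genes moved with them, at 8.47 and 8.66 in TEL-JAK2 replicates 2 and 4 and 7.14 and 6.39 in replicates 1 and 3, against 8.89 to 10.25 in ICN1 arrays, and its part in these values was not tested. Il2, Il3, Il4 and Csf2 averaged 3.81 to 4.47 in TEL-JAK2 and 3.91 to 4.40 in ICN1, near the lower end of the table, and none was called.

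**Figure D5:**
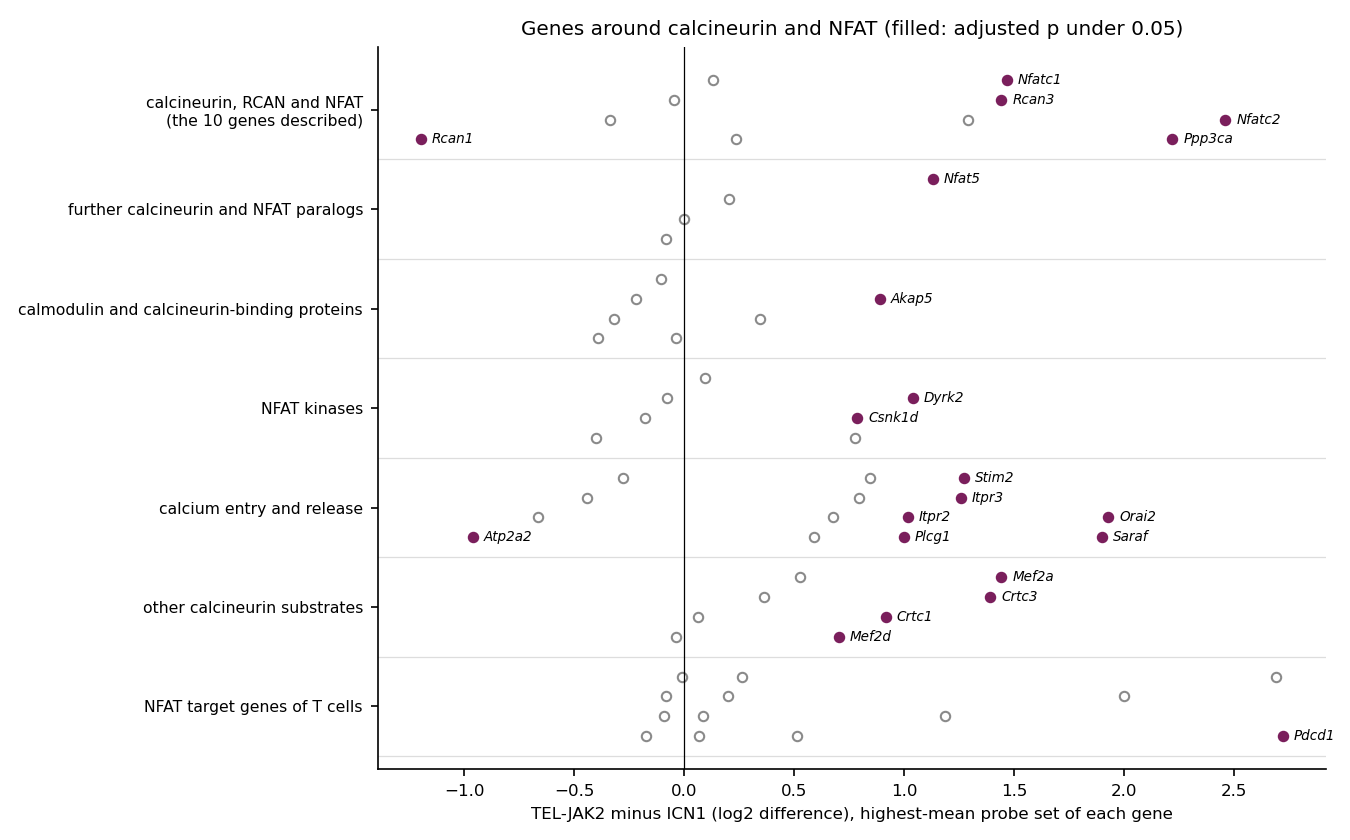
Difference TEL-JAK2 minus ICN1 (horizontal axis, log2) of the brightest probe set of each gene, by list (rows), with each point a gene, filled and named at an adjusted p under 0.05. Rcan1 at -1.20 and Atp2a2 at -0.96 are the 2 named genes below 0, and with CD3 centring all points would lie 0.62 further left.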

How the data were processed

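RNA of 7 leukemic cell suspensions was measured on 1 Affymetrix mouse array each. The authors deposited 1 table of log2 values, made with RMA per the submitters' processing notes. RMA subtracts background, brings the arrays to a common distribution and merges the probes of a probe set. The notes used here give neither version nor settings, and the values (2.57 to 14.86) were used as deposited. A difference in total RNA is thus lost. No detection calls or scan dates were used, and the number of arrays limits the precision.

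Names came from the platform annotation (34945 with 1 symbol, 932 with several, 9160 with none), and 34741 matched RefSeq by gene ID, which changed 0 symbols. All 45037 probe sets were fitted by lmFit and eBayes of limma 3.58.1 (R 4.3.3), two-sided, with genotype as the only term. No filter on low values was used, so all 31 probe sets were tested, of which 22 would pass a filter at the median mean. The fit was tested on simulated arrays.

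Replicate numbers follow accession order and pair nothing. The members, the gene lists and the alternatives, CD3 centring and the omission of ICN1 replicates 1 and 2 among them, were chosen with earlier results of these data known. The rule names all members and their probe sets and, of each pathway list, up to 4 called genes with the smallest adjusted p and the genes of counts of 5 or fewer. Orai1, Stim1, Orai2, Itpr2, Ifng, Tnfrsf9, Fasl, Il2, Il3, Il4 and Csf2 were named after their values were seen. Listed genes without a probe set of 1 symbol were not analysed here. RefSeq promoter windows (build GRCm38.p6) matched 7 of the 10 genes. Figures were drawn with matplotlib 3.10.9.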

Additional observations from a re-analysis of the deposited data

Results flagged for a closer look

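In TEL-JAK2 replicate 4, 4 of the 31 probe sets lay apart from the other TEL-JAK2 arrays by more than Dixon's 95% limit for 4 samples, out of 31 groups examined, and chance gives about 1 in 20. In all 4 it was the lowest array. It read 7.41 for Rcan3 (1434027_at) and 9.24 for Nfatc2 (1439205_at), both still above every ICN1 array. It read 4.26 for Nfatc2 (1440426_at) and 3.86 for Rcan2 (1450243_a_at), near the lower end of the table. The same array held Eif2s3y (10.23, at most 3.29 in the other TEL-JAK2 arrays) and the highest mean of 12 stromal and endothelial genes in its group (6.97, at most 5.37 in the others). The part of either in these values was not tested. Without this array the differences of the 31 probe sets kept their signs, and 10 were called higher and 2 lower. In that fit 8563 of all 45037 probe sets were called in either direction. ICN1, with 3 arrays, was not examined in this way. Nor were the probe sets of other genes, so the count of 4 that lay apart is not set against all 45037. The 31 groups share arrays and some share a gene, so 1 in 20 is a rough guide.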

How the results depend on the processing

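Over the alternative settings, 423 values of the 31 probe sets kept direction and side of the threshold. With the sign kept, 27 lost a call and 17 gained one. A further 17 changed sign and were counted apart, whether or not the call changed too. Among them, with CD3 centring, Rcan3 1450450_at and Nfatc1 1447084_at also lost a call. Rcan2 1450243_a_at, Nfatc2 1426032_at and 1440426_at, and Nfatc3 1452497_a_at were then called lower. Sign changes with CD3 centring were to -0.39 and -0.27 (Ppp3r1), -0.49 (Rcan2), -0.064 (Rcan3), -0.15 and -0.38 (Nfatc1), -0.48, -0.31, -0.48 and -0.58 (Nfatc2) and -0.54 (Nfatc3). The others were to 0.015 (Ppp3cb 1428473_at, array weights), 0.065 (the same, without ICN1 replicate 3), 0.0038 and 0.30 (Ppp3cb 1446149_at, without ICN1 replicate 2, and without ICN1 replicates 1 and 2), and -0.021 and -0.027 (Nfatc3 1452497_a_at, without ICN1 replicates 1 or 3). Leaving out 1 array gave -0.161 to 0.065 for Ppp3cb 1428473_at, -0.465 to 0.0038 for Ppp3cb 1446149_at and -0.027 to 0.308 for Nfatc3 1452497_a_at.

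Counts of calls moved as follows. Testing each gene by its brightest probe set gave 2165 genes higher and 2215 lower, 4 and 1 of them members, and testing it by the mean of its probe sets gave 2096 and 2233, with 6 and 1 members and 2 pathway genes lower. The 2 members gained with the mean were Ppp3cc (1.37, limma adjusted p = 0.0407) and Ppp3r1 (0.29, 0.0268). In the settings that follow, members are counted as probe sets. Without _x_at, _s_at and _a_at probe sets 18 were left, 7 higher and 0 lower, where 3063 and 3202 of all 36082 were called. No lower call was left because both Rcan1 probe sets are _a_at. Without dim probe sets 11 of 22 were higher and 1 lower, where 3835 and 4135 of all 22518 were called. CD3 centring gave 1558 higher and 30005 lower, 6 and 13 members, and 8 and 19 pathway genes. The test against a 1.5-fold difference gave 889 and 1307, 5 and 1 members, and 3 and 0 pathway genes. Without ICN1 replicates 1 and 2 there were 2286 higher, 6 and 1 members, and 8 pathway genes higher. Array weights gave 2 pathway genes lower. Leaving out 1 array gave 2801 to 4170 higher and 3374 to 4393 lower, 9 to 11 members higher and 2 lower each time, and 11 to 15 pathway genes higher and 1 to 3 lower. Where no construction is named, the cause was not tested. No paired analysis was made, since the labels name no pairing between arrays of the 2 leukemias. Background correction and slide could not be varied from RMA values.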
